A study of Rattus norvegicus with 12 samples.

Results

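The genes described here are 10 components and targets of bone morphogenetic protein (BMP) signalling, measured in whole rat lung: the receptors Bmpr2 and Acvrl1, the coreceptor Eng, the signal transducer Smad9, the inhibitory SMADs Smad6 and Smad7, and the inhibitors of DNA binding Id1, Id2, Id3 and Id4. They were chosen by name, with earlier results of these data known, and are 10 of the 14217 genes that the platform annotation names. All probe sets that it assigns to a single one of them were taken, which gave 21 of the 31099 probe sets on the array. Of these, 17 were bright enough to be tested, among 18626 tested probe sets in all, and each of the 10 genes had at least 1 tested probe set. The 4 remaining ones, 2 of Smad6, 1 of Smad9 and 1 of Bmpr2, had mean intensities of 21.2 and 36.3 (Smad6), 32.4 (Smad9) and 33.1 (Bmpr2), below the limit of 43.6, and were not tested.

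BMPs are secreted ligands that bring type I and type II receptor kinases together on the cell surface. In lung endothelium the type II receptor BMPR2 and the type I receptor ALK1, the product of Acvrl1, act with the coreceptor endoglin, the product of Eng, and phosphorylate SMAD1, SMAD5 and SMAD9, which enter the nucleus with SMAD4. Id genes and Smad6 and Smad7 are textbook targets of this signal: ID proteins bind E proteins and keep them from DNA, and SMAD6 and SMAD7 feed back on the receptors. In people, loss of BMPR2 function is the leading inherited cause of pulmonary arterial hypertension, and mutations of ENG and ACVRL1 cause hereditary haemorrhagic telangiectasia.

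The arrays come from the right lungs of 12 rats of 250 to 350 g, in 4 groups of 3: Dahl salt-sensitive rats (SS, an inbred model of salt-induced hypertension) with HTV ventilation, SS controls, Brown Norway rats (BN, a normotensive inbred strain) with HTV ventilation, and BN controls. The labels do not spell out HTV, call the strains parents, carry the same remark on room air for all 4 groups and give no age or sex. The lung vessels were rinsed with saline, and each array carries its own animal number, so values are whole-lung levels of single animals. Values are linear intensities per probe set, scaled by the submitters, and differences, HTV minus control or SS minus BN, are log2(intensity + 16) differences ± SE (standard error). Adding 16 makes changes of dim probe sets look smaller than they are. A call means an adjusted p below 0.05 in limma, with Benjamini-Hochberg adjustment over all 18626 tested probe sets, and every group has n = 3.

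Median intensities were 58.6 to 68.1 over the arrays, and Pearson's r between arrays was 0.882 to 0.980. The third SS control array stood apart: its mean r with its own group was 0.949, and array weighting gave it 0.286, the lowest of the 12 weights. Its log2 ratio of 5′ to 3′ beta-actin signal was -1.40, against -0.507 and -0.232 on the other SS control arrays. BN arrays had similar ratios, such as -1.46 on the second BN control and -1.35 on the third BN HTV array, so the ratio was unusual among SS arrays only. Markers of lung cells were bright in all groups. The 18 measured endothelial markers summed to 18172.6 to 20887 on SS HTV, 17927 to 19557 on SS control, 22037.6 to 22575.6 on BN HTV and 22771.4 to 23742.9 on BN control arrays. The 8 type 2 cell markers summed to 18131 or more on every array, and 0 of them passed the test for HTV in either strain.

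With HTV, transcripts of 1 target and 1 transducer fell in both strains. Id3 was 3.08-fold lower in SS HTV than in SS control lungs and 4.61-fold lower in BN HTV than in BN control lungs, and Smad9 was 1.96-fold and 2.01-fold lower. Averaged over the strains, Id4 rose by 2 of its 4 probe sets. In control lungs 1 of them, 1375120_at, had means of 41.4 (SS) and 45.1 (BN), beside the filter limit of 43.6. The receptors Bmpr2, Acvrl1 and Eng, the inhibitory Smad6 and Smad7, and Id1 and Id2 gave no call for HTV in either strain. In each strain 3 of the 17 tested probe sets were called, 2 lower and 1 higher, which is 17.6% of them. Over all tested probe sets, 8.06% were called in SS lungs (4.16% lower and 3.9% higher) and 5.86% in BN lungs (2.86% lower and 3% higher). With the effect averaged over the strains, 2 were lower and 2 higher (23.5%), beside 15.8% called over all (8.74% lower and 7.09% higher). The genes were chosen with earlier results of these data known, so these shares are a description only. The median difference of the 17 probe sets was 0.08 in SS and -0.17 in BN lungs, beside -0.01 and -0.03 over all tested probe sets. In these whole-lung samples, fewer cells of a type and less RNA per cell cannot be told apart.

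**Figure D1:**
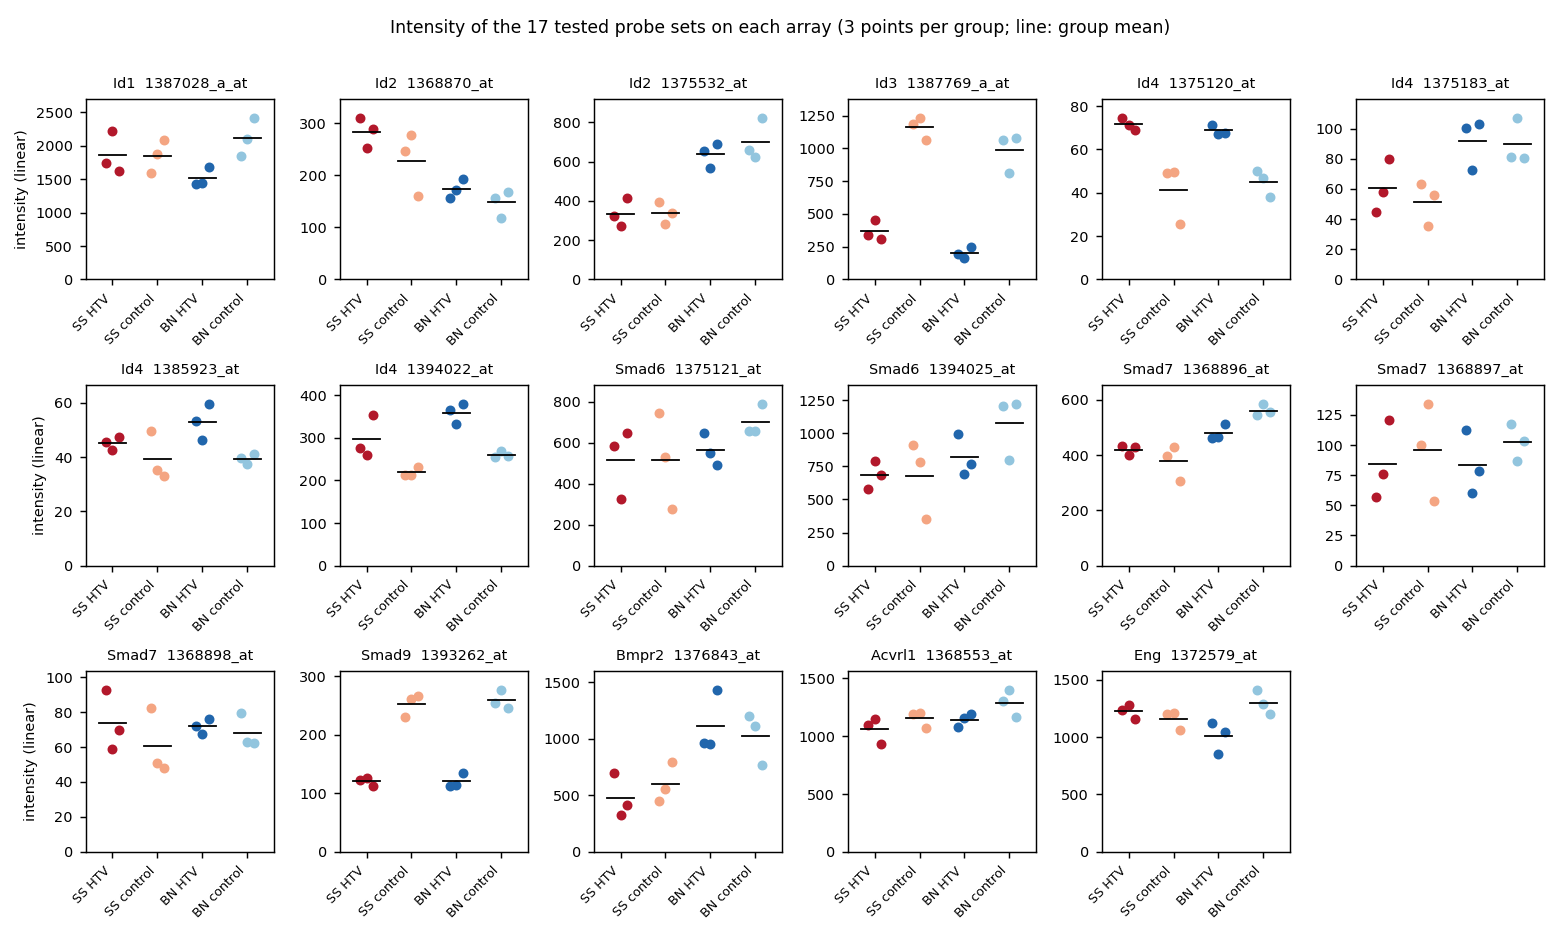
Intensity (linear axis from 0) of each of the 17 tested probe sets on every array, with SS HTV, SS control, BN HTV and BN control from left to right in each panel, 3 points per group and a line at the group mean. The HTV points of Id3 and Smad9 lie below all control points in both strains, and the Bmpr2 points of HTV lungs lie lower in SS than in BN lungs.

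For Id3 and Smad9, which fell, and for Id1, the close relative of Id3 that gave no call, the 250 bases before the gene start are printed here from RefSeq (build GRCr8), read 5′ to 3′ on the strand of the gene. Id3 lies at chr5:153656041-153656290 on the plus strand, Smad9 at chr2:141106418-141106667 on the plus strand and Id1 at chr3:161671314-161671563 on the plus strand. Capitals mark every match, on either strand, of the 5 motifs searched: GGCGCC and CAGAC, which SMADs can bind, TGACG, part of the cyclic AMP response element, and CCAAT and TATAA, common promoter elements.
Id3: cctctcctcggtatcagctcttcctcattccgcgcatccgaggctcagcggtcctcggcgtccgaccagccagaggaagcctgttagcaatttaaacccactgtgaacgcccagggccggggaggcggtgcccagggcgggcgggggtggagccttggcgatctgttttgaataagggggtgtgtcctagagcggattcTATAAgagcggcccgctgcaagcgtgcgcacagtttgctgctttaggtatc
Smad9: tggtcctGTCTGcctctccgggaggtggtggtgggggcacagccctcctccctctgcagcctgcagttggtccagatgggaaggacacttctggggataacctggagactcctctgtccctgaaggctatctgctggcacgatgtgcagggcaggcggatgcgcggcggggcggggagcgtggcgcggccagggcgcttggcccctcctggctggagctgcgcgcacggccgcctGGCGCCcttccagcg
Id1: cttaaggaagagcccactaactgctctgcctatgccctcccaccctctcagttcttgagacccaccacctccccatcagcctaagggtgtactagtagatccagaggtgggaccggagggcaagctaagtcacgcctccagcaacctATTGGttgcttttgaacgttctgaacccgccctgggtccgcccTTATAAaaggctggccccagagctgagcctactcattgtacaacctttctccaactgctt

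Neither SMAD motif was in the window of Id3 or Id1. The Smad9 window held GGCGCC at 15 bases and CAGAC on the opposite strand at 243 bases before the start. TATAA stood 51 bases before the start of Id3 and 59 bases before that of Id1, where it overlaps a match on the other strand. Of the 8 genes with an entry, which leaves out Smad6 and Acvrl1, GGCGCC was in 2 (Smad7 and Smad9), CAGAC in 2 (Smad9 and Eng), CCAAT in 3 (Id1, Id2 and Eng), TATAA in 2 (Id1 and Id3) and TGACG in 0. Over 33469 promoters of the same length, the shares with a match were 8.69% for GGCGCC, 42.9% for CAGAC, 34% for CCAAT, 24% for TATAA and 18.2% for TGACG. A match describes the letters of the window only.

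Bmpr2 encodes the type II receptor. Its tested probe set, 1376843_at, had intensities of 700.7, 324.8 and 410.6 in SS HTV lungs, against 444.7, 556.4 and 795.4 in SS control lungs. In BN lungs they were 961.2, 952.4 and 1426.5 with HTV, against 1202.8, 1112.6 and 763.4 in controls. HTV and control arrays overlapped in both strains, and neither difference passed the test (SS -0.35 ± 0.27, adjusted p = 0.456; BN 0.12 ± 0.27, adjusted p = 0.872). The 95% interval of the SS difference reached from -0.94 to 0.25. Levels of this probe set were lower in SS than in BN lungs, with a called difference in HTV lungs (-1.24 ± 0.27, adjusted p = 0.0148) and none in control lungs (-0.78 ± 0.27, adjusted p = 0.0816). The control difference was called with array weights (adjusted p = 0.0308) and in 2 of the 12 fits that left out 1 array. The SS effect of HTV minus the BN effect, -0.46 ± 0.39, did not pass (adjusted p = 0.738). The order of the group means was SS HTV (478.7), SS control (598.8), BN control (1026) and BN HTV (1113), and within a strain the HTV and control lungs did not differ beyond their spread.

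Acvrl1, the type I receptor ALK1 of endothelium, varied little. Probe set 1368553_at gave 1101.5, 1146.5 and 929.3 in SS HTV lungs, against 1188.4, 1200.7 and 1072.9 in SS control lungs. The BN values were 1082, 1153.8 and 1190.8 with HTV, against 1308.7, 1396.7 and 1169.2 in controls. The arrays overlapped in both strains, the differences were -0.13 ± 0.10 in SS and -0.17 ± 0.10 in BN lungs, and the average of both, -0.15 ± 0.07, had an adjusted p of 0.191.

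Eng, the endoglin gene, was measured by 1 probe set. This probe set, 1372579_at, had 1239.2, 1281.2 and 1158 in SS HTV lungs, against 1200.5, 1215.3 and 1065.2 in SS control lungs. BN HTV lungs had 1126.6, 851.1 and 1045.9, against 1407.9, 1291 and 1200.5 in BN control lungs. The BN HTV arrays all lay below the BN control arrays, as 15.7% of all tested probe sets did, while the SS arrays overlapped. The difference was -0.37 ± 0.11 in BN lungs (adjusted p = 0.0741) and 0.08 ± 0.11 in SS lungs (adjusted p = 0.688), and the difference between these effects, 0.45 ± 0.16, did not pass (adjusted p = 0.576). The BN difference was called without the third SS control array (adjusted p = 0.0495), where the difference itself was unchanged, and after quantile normalization (-0.42, adjusted p = 0.045). These were the only calls, 1 of the 12 fits that left out 1 array (adjusted p up to 0.246) and 1 of 10 other settings.

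Smad9 encodes one of the SMADs that BMP receptors phosphorylate, and is itself induced by BMPs. Its tested probe set, 1393262_at, had intensities of 122.8, 126.7 and 113.2 in SS HTV lungs, against 230.8, 260.2 and 265.3 in SS control lungs. BN HTV lungs had 113, 114.4 and 134.8, against 254.5, 275.6 and 245.4 in BN control lungs. All 6 HTV arrays were lower than all 6 control arrays, and the highest HTV array, a BN one, was far below the lowest control array. Within a strain, HTV arrays lay below controls without overlap for 15.8% of all tested probe sets in SS and 15.7% in BN lungs. Smad9 fell by 0.97 ± 0.11 in SS lungs (adjusted p = 0.000229) and by 1.01 ± 0.11 in BN lungs (adjusted p = 0.000174). Averaged over strains the fall was 0.99 ± 0.08 (adjusted p = 3.95e-06). The strains differed by -0.03 ± 0.11 in control and by 0.00 ± 0.11 in HTV lungs, and the difference of the effects was 0.04 ± 0.16, with a 95% interval of -0.30 to 0.38. The untested probe set 1370716_at was dim, with group means of 35.2 in SS HTV, 28.8 in SS control, 31.2 in BN HTV and 34.6 in BN control lungs.

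Smad6, whose product inhibits BMP receptor signalling in particular, scattered widely within groups. Probe set 1394025_at had 575.6, 786.8 and 688 in SS HTV lungs, against 908.1, 782.7 and 349.5 in SS control lungs. In BN lungs it had 990.9, 694.2 and 768.7 with HTV, against 1204.6, 799 and 1218.5 in controls. The third SS control array was lowest of the 12 for this probe set, and for 1375121_at as well, with 277. Differences for HTV were 0.10 ± 0.28 in SS and -0.38 ± 0.28 in BN lungs for 1394025_at, and 0.05 ± 0.30 and -0.31 ± 0.30 for 1375121_at, and none passed the test. Between strains in control lungs, 1394025_at differed by -0.73 ± 0.28 (adjusted p = 0.109). With the beta-actin ratio as a covariate this strain difference was -1.11 (adjusted p = 0.00247), the only call among 10 other settings. Over the 12 fits that left out 1 array it ranged from -0.99 to -0.32 and was called in 1. The value of -0.32 was that without the third SS control array. Untested probe sets 1377467_at and 1385928_at had group means of 18.8 to 23.2 and of 31.5 to 40.9.

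Smad7, the inhibitory SMAD shared by the BMP and TGF-beta branches, was measured by 3 probe sets. For 1368896_at the intensities were 432.6, 399.5 and 428.5 in SS HTV lungs, against 398.3, 431 and 307.9 in SS control lungs. BN HTV lungs had 462.7, 465.2 and 511.7, against 543.8, 584.4 and 555.6 in BN control lungs. The BN HTV arrays lay below the BN control arrays, as 15.7% of all tested probe sets did, and the SS arrays overlapped. HTV differences were 0.16 ± 0.12 in SS (adjusted p = 0.425) and -0.22 ± 0.12 in BN lungs (adjusted p = 0.32). In control lungs this probe set was lower in SS than in BN rats (-0.56 ± 0.12, adjusted p = 0.00931), and in HTV lungs the difference was -0.18 ± 0.12 (adjusted p = 0.371). Probe sets 1368897_at and 1368898_at overlapped between strains, with control differences of -0.15 and -0.16 that did not pass.

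Id1, a family member widely used as a readout of BMP signalling, gave no call. Its intensities were 1748, 2225 and 1618.1 in SS HTV lungs, against 1587.6, 1873.5 and 2082.8 in SS control lungs. They were 1420.3, 1447.4 and 1682.5 in BN HTV lungs, against 1842.1, 2097.7 and 2412.4 in BN control lungs. SS arrays overlapped, and the BN HTV arrays all lay below the BN control arrays, as 15.7% of all tested probe sets did. The SS difference was 0.01 ± 0.14, with a 95% interval of -0.30 to 0.31. The BN difference was -0.47 ± 0.14 and did not pass the test (adjusted p = 0.0705). It was called in 4 of 10 other settings: quantile normalization (-0.53, adjusted p = 0.0323), array weights (adjusted p = 0.0267), the beta-actin covariate (adjusted p = 0.0483) and only the BN arrays (adjusted p = 0.046). Of the 12 fits that left out 1 array it was called in 1, without the third SS control array (adjusted p = 0.0478), where the BN difference itself was unchanged. The adjusted p reached 0.244 over these fits.

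Id3, which is induced by BMPs in endothelial cells and is also active in lymphocytes, fell in every HTV lung relative to the controls of its strain. Its single probe set, 1387769_a_at, had 341.5, 457.1 and 310.8 in SS HTV lungs, against 1184.9, 1231.2 and 1065.3 in SS control lungs. In BN lungs it had 192.4, 165.9 and 247.3 with HTV, against 1062.6, 814.9 and 1078 in controls. HTV arrays lay below the control arrays without overlap in both strains, as 15.8% of all tested probe sets did in SS and 15.7% in BN lungs, and the BN HTV arrays lay below the SS HTV arrays. From low to high, the group means were 201.9 ± 41.5 (SD) in BN HTV, 369.8 ± 77.1 in SS HTV, 985.2 ± 148 in BN control and 1160 ± 85.6 in SS control lungs. SS HTV lungs were higher than BN HTV lungs (0.82 ± 0.17, adjusted p = 0.0084), and the strains did not differ by the test in control lungs (0.24 ± 0.17, adjusted p = 0.352). The averaged effect of HTV was -1.92 ± 0.12 (adjusted p = 4.84e-07). The SS effect minus the BN effect was 0.58 ± 0.23, which did not pass the test of that difference (adjusted p = 0.579, unadjusted p = 0.0266).

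Id2 has 2 tested probe sets, and neither gave a call for HTV. For 1368870_at the intensities were 310, 252 and 288.5 in SS HTV lungs, against 246.2, 276.9 and 159.6 in SS control lungs. They were 157.3, 171.4 and 193 in BN HTV lungs, against 157.4, 118.9 and 168 in BN control lungs. The HTV differences were 0.33 ± 0.18 and 0.22 ± 0.18, with overlapping arrays. For 1375532_at the values were 322.2, 272.1 and 413.4 in SS HTV lungs, against 396.6, 282.3 and 337.9 in SS control lungs. They were 654.8, 570.2 and 689.8 in BN HTV lungs, against 658.6, 624.2 and 822 in BN control lungs. The 2 probe sets pointed opposite ways between strains. SS lungs were lower by 1375532_at in HTV lungs (-0.91 ± 0.16, adjusted p = 0.00409) and in control lungs (-1.02 ± 0.16, adjusted p = 0.00195). By 1368870_at SS lungs were higher in HTV lungs (0.66 ± 0.18, adjusted p = 0.0399), and the control difference of 0.55 ± 0.18 did not pass (adjusted p = 0.0631). No single direction of Id2 between the strains can be read from these probe sets.

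Id4, an inhibitor of DNA binding like its relatives, was measured by 4 probe sets. Probe set 1394022_at had 277.3, 259.7 and 354.1 in SS HTV lungs, against 212.9, 213.2 and 231 in SS control lungs. BN HTV lungs had 365, 332 and 379.1, against 255.3, 268.7 and 257.7 in BN control lungs. The HTV arrays were higher without overlap in both strains, as were 14% of all tested probe sets in SS and 10.9% in BN lungs. The difference was called in BN lungs (0.44 ± 0.12, adjusted p = 0.0447), missed the threshold in SS lungs (0.40 ± 0.12, adjusted p = 0.0512) and was 0.42 ± 0.08 on average (adjusted p = 0.00399). Probe set 1375120_at had 74.5, 71.2 and 69 in SS HTV lungs, against 49.2, 49.4 and 25.7 in SS control lungs. BN HTV lungs had 71.5, 67.2 and 67.8 by it, against 50.2, 47 and 38.2 in BN control lungs. Again every HTV array was above the controls of its strain, and the average difference was 0.56 ± 0.12 (adjusted p = 0.00707). In single strains it was called in SS lungs (0.64 ± 0.17, adjusted p = 0.0368) and not in BN lungs (0.48 ± 0.17, adjusted p = 0.13). Its SS control mean of 41.4 lay below the filter limit of 43.6, and it passed the filter with the help of its HTV arrays. The other 2 probe sets, 1385923_at and 1375183_at, gave averages of 0.24 ± 0.10 and 0.11 ± 0.15 that did not pass.

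**Figure D2:**
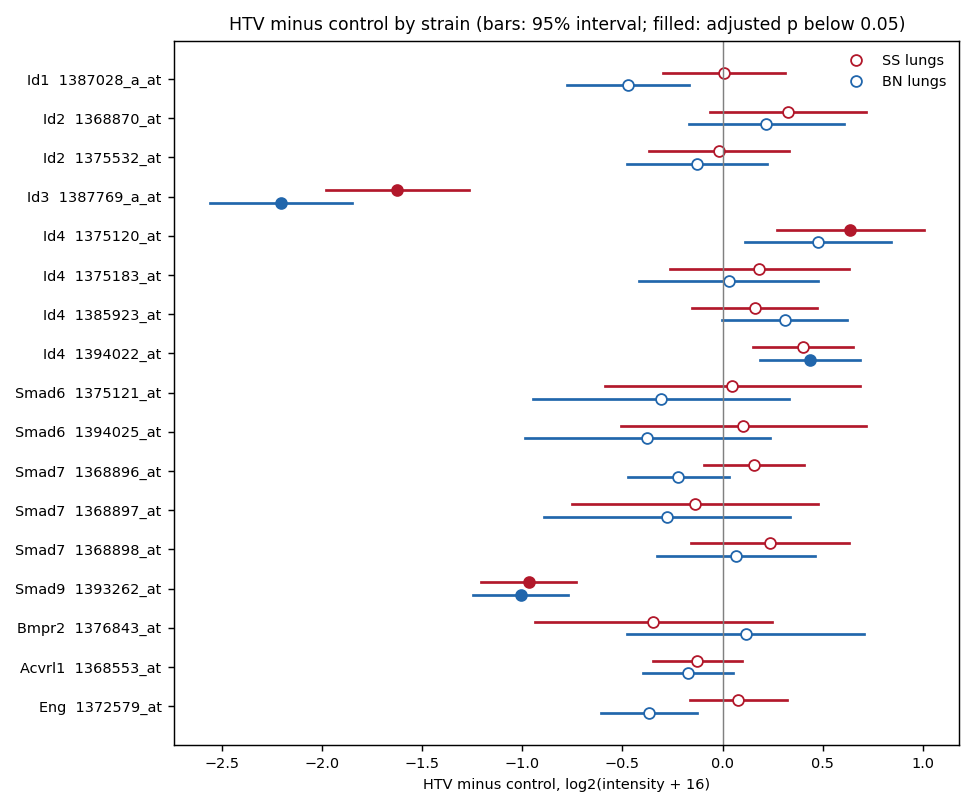
HTV minus control on the log2(intensity + 16) axis for the 17 tested probe sets, with SS lungs above BN lungs in each row, bars for the 95% interval and filled points for an adjusted p below 0.05. Id3 and Smad9 are filled on the negative side in both strains, and filled points on the positive side belong to Id4.

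The calls for Id3 and Smad9 held in all 12 fits that left out 1 array and under all other settings run, with differences between -1.78 and -1.51 (SS) and between -2.35 and -2.08 (BN) for Id3 over the left-out arrays. The single-strain calls of Id4 did not: 1394022_at in BN lungs was called in 3 of 12 such fits (adjusted p up to 0.132), and 1375120_at in SS lungs lost its call without the third SS control array (0.42, adjusted p = 0.0925) and without any 1 of the SS HTV arrays. The averaged differences of both Id4 probe sets were called in all fits that tested them.

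Markers of blood cells moved with HTV beside these genes. Of 7 measured neutrophil markers, 4 rose in SS and 5 in BN lungs, and their summed intensity was 5420.3 to 8690.3 in SS HTV lungs, against 1937.8 to 2389.8 in SS control lungs. It was 3061.1 to 11846.3 in BN HTV lungs, against 1147.9 to 2455.1 in BN control lungs. Of the 7, 2 in SS control and 3 in BN control lungs had a mean below the filter limit, and 0 in HTV lungs. These markers passed the filter with the help of their HTV arrays. The third BN HTV array had the lowest neutrophil sum of the HTV arrays and the highest Id3 value of its group. Of 10 measured T and NK cell markers, 3 fell in SS and 1 in BN lungs, with sums of 1576.4 to 1734.2 in SS HTV, against 1851.4 to 3196 in SS control lungs, and of 893.9 to 1270.8 in BN HTV, against 1513.5 to 1584.5 in BN control lungs. Of 18 endothelial markers, 2 rose and 1 fell in each strain. Averaged over the strains, 6 neutrophil markers rose, 5 T and NK cell markers fell, and 5 endothelial markers rose and 2 fell. Of all 10555 genes with a tested probe set, 3.92% were called higher and 4.12% lower in SS lungs. The shares were 2.99% and 2.69% in BN lungs, and 6.89% and 8.71% on average. No marker was at 0 on any array, and the lowest value was 4.5 for the neutrophil granule gene Camp in BN control lungs. The part of these cell types in the changes of Id3, Smad9 and Id4 was not tested.

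Between the strains, 2 of the 17 tested probe sets were called in control lungs, Id2 1375532_at and Smad7 1368896_at, both lower in SS rats. That is 11.8%, beside 12.3% of all tested probe sets called and 6.43% called lower. In HTV lungs 4 were called, 23.5% beside 8.37% of all (3.9% higher and 4.47% lower): Id3 and Id2 1368870_at were higher and Id2 1375532_at and Bmpr2 lower in SS rats. The beta-actin 5′ to 3′ ratio was lower on average in BN than in SS arrays, and with it as a covariate the call of Id2 1375532_at was the only one of the 4 in HTV lungs to hold, while Smad6 1394025_at gained one (-0.81, adjusted p = 0.0343). Under it the Bmpr2 difference was -0.87 (adjusted p = 0.119), that of Id3 0.72 (adjusted p = 0.0676) and that of Id2 1368870_at 0.39 (adjusted p = 0.262). The Bmpr2 call was also lost without the second SS HTV array (adjusted p = 0.0727), the third SS HTV array (adjusted p = 0.0618) or the third BN HTV array (adjusted p = 0.0549). Id2 1368870_at was called in 5 of the 12 fits that left out 1 array (adjusted p up to 0.121), and lost its call with no filter (adjusted p = 0.0637). Of the 18 measured endothelial markers, 3 were lower in SS than in BN control lungs, 0 were higher and 15 did not pass. The 3 were Vwf (-0.89, adjusted p = 0.000631), Erg (-0.89, adjusted p = 0.00612) and Pecam1 (-0.52, adjusted p = 0.00952). In HTV lungs Pecam1 (-0.63, adjusted p = 0.0032) and Vwf (-0.59, adjusted p = 0.00925) were lower in SS rats, Fli1 was higher (0.38, adjusted p = 0.0482) and 15 did not pass. Of all 10555 genes, 5.87% were called higher and 5.16% lower in SS than in BN control lungs. In HTV lungs the shares were 4.01% and 3.27%. Called higher in SS control lungs were 5 of 10 T and NK cell and 3 of 7 macrophage markers. So were 4 of 12 smooth muscle and fibroblast and 1 of 6 type 1 cell markers. In HTV lungs these counts were 2, 3, 3 and 1, and 0 were lower in either condition. The part of any cell type in the strain differences of Smad7, Bmpr2, Id2 and Id3 was not tested.

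**Figure D3:**
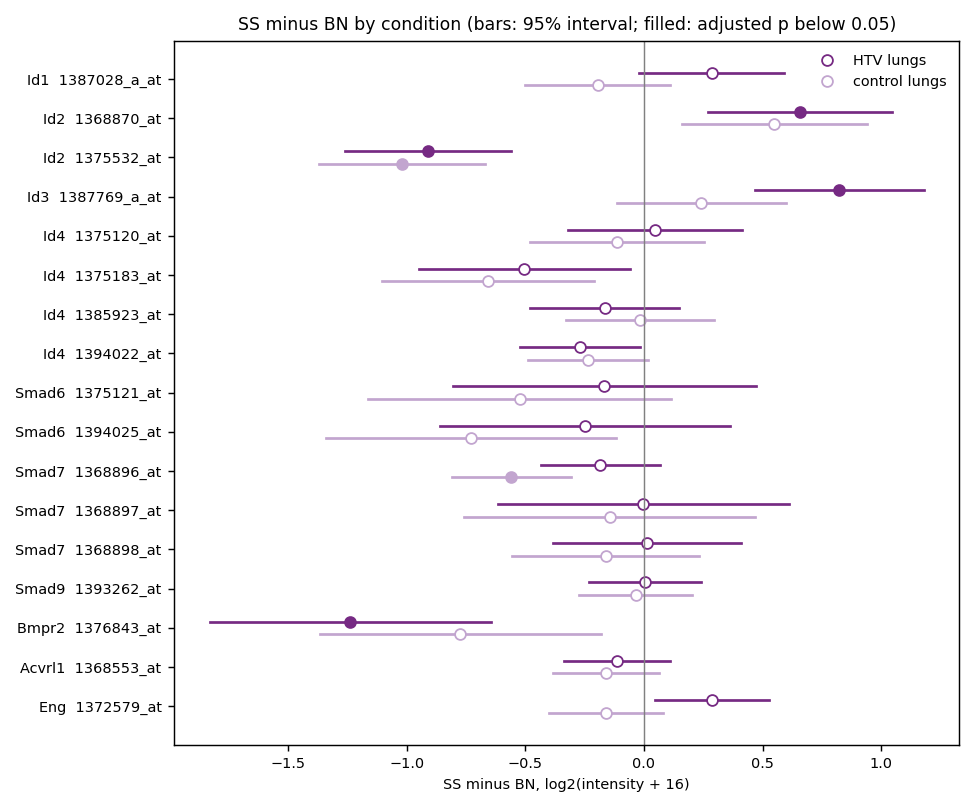
SS minus BN on the log2(intensity + 16) axis for the same 17 probe sets, with HTV lungs above control lungs in each row, bars for the 95% interval and filled points for an adjusted p below 0.05. The 2 probe sets of Id2 lie on opposite sides of 0, and Bmpr2 and Id3 are filled in HTV lungs only.

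Whether HTV acted differently in the strains was tested by the SS effect minus the BN effect. None of the 17 probe sets passed, nor did any of the 18626 (0% called). At an unadjusted p below 0.05 there were 4 of the 17, namely Id1, Id3, Smad7 1368896_at and Eng, beside 8.31% of all tested probe sets. In all 4 the SS effect lay above the BN effect, with differences of 0.48 ± 0.20 for Id1, 0.58 ± 0.23 for Id3, 0.38 ± 0.16 for Smad7 1368896_at and 0.45 ± 0.16 for Eng, and adjusted p-values of 0.576 to 0.587.

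Among the other genes of the pathway, the list of BMP and activin ligands has 13 entries, of which 1, Bmp1, encodes a protease and not a ligand. Of these, 8 were measured, and Bmp2 and Bmp1 rose on average with HTV, beside 6.89% of all 10555 genes with a tested probe set. Bmp2, which signals through BMPR2, had 526.1, 356.3 and 428.6 in SS HTV lungs, against 124.6, 135.9 and 117.1 in SS control lungs, and 198.4, 180.6 and 136.7 in BN HTV lungs, against 74, 82.7 and 69.2 in BN control lungs. HTV arrays lay above the controls without overlap in both strains, as did 14% of all tested probe sets in SS and 10.9% in BN lungs. Bmp2 rose by 1.66 ± 0.16 in SS (adjusted p = 6.78e-05) and by 1.03 ± 0.16 in BN lungs (adjusted p = 0.00207). Bmp2 transcripts were higher in the same lungs in which those of Id3 and Smad9 were lower. Bmp1, whose product cleaves the BMP antagonist chordin, rose in SS lungs by its brighter probe set (0.79 ± 0.12, adjusted p = 0.00156) and differed by 0.00 ± 0.12 in BN lungs, and another of its probe sets gave 0.33 ± 0.26 in SS lungs, which did not pass. Bmp4 (-0.22 ± 0.15) and Bmp6 (-0.12 ± 0.09) did not pass on average. Gdf2 and Bmp10, the ligands of ALK1, had no tested probe set.

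None of the 10 measured antagonists and extracellular modulators passed in either strain or on average. Of 9 other receptors and coreceptors, each by its brightest probe set, 0 passed in SS and 2 fell in BN lungs, beside 2.69% of all 10555 genes called lower in BN lungs. The 2 were Bambi, a decoy receptor that is itself a target of BMP and TGF-beta signalling (-0.60 ± 0.11, adjusted p = 0.00655), and the type II activin receptor Acvr2b (-0.95 ± 0.17, adjusted p = 0.0062). The coreceptor gene Rgmb gave -0.25 ± 0.09 on average by its brightest probe set (adjusted p = 0.0936), while another of its probe sets, named after its values were seen, fell by 0.55 ± 0.14 in SS (adjusted p = 0.0283) and by 0.80 ± 0.14 in BN lungs (adjusted p = 0.00412). In SS lungs the difference of Bambi was -0.37 ± 0.11 (adjusted p = 0.0584), and its average of -0.48 ± 0.08 passed (adjusted p = 0.00104). The type I receptors Bmpr1a (-0.14 ± 0.09) and Acvr1 (0.02 ± 0.07) did not pass on average.

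Of the 18 measured SMADs and SMAD regulators outside the 10 genes, 4 rose and 4 fell on average, beside 6.89% and 8.71% of all 10555 genes. Smad1 and Smad5, which share with Smad9 the place downstream of the BMP receptors, went opposite ways: Smad1 rose by 0.33 ± 0.06 (adjusted p = 0.00301) and Smad5 fell by 0.38 ± 0.08 (adjusted p = 0.00565). Further probe sets of Smad5 gave differences of -0.17 and 0.21 on average and did not pass, and another one of Smad1 gave 0.35 (adjusted p = 0.0519). Smad4, their common partner, had 0.05 ± 0.09 by its brightest probe set and -0.35 ± 0.13 by another one (adjusted p = 0.0927), and neither passed. The TGF-beta branch member Smad2 (-0.33 ± 0.08), the repressor Zeb2 (-0.33 ± 0.08) and the ubiquitin ligase Smurf2 (-0.24 ± 0.07) fell as well. Further probe sets of Zeb2 gave -1.11 ± 0.14 and -0.32 ± 0.09, which passed, and -0.15 ± 0.08 and -0.13 ± 0.20, which did not. Skil, a corepressor of SMADs (0.34 ± 0.09), Tob1 (0.34 ± 0.09) and Tob2 (0.45 ± 0.12) rose.

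Among 15 other measured target genes, 5 fell and 1 rose on average, beside 8.71% and 6.89% of all 10555 genes with a tested probe set. Hey1, a repressor induced by both Notch and BMPs in endothelium, had 242.8, 584.3 and 151.1 in SS HTV lungs, against 809.3, 784.3 and 794 in SS control lungs, and 219.9, 222 and 456.1 in BN HTV lungs, against 732.4, 940.6 and 957.3 in BN control lungs. All HTV arrays were below the controls of their strain, as for 15.8% of all tested probe sets in SS and 15.7% in BN lungs. The second SS HTV array was the highest of the HTV arrays, and the average fall was 1.51 ± 0.26 (adjusted p = 0.00143). Hey2 (-0.60 ± 0.15), Gata3 (-0.58 ± 0.13), Gata6 (-0.45 ± 0.12) and Tmem100 (-0.27 ± 0.08), a target of ALK1 signalling in mouse endothelium, fell too, and another probe set of Tmem100 gave 0.03 ± 0.13, which did not pass. The cell cycle inhibitor Cdkn1a, which many stress signals induce, rose by 1.85 ± 0.14 (adjusted p = 2.78e-06). Atoh8, a target of BMP signalling in endothelium and liver, gave -0.11 ± 0.10. Bmp2k, a kinase gene induced by BMP2, gave 0.09 ± 0.16 on average by its brightest probe set, while another of its probe sets, named after its values were seen, rose by 1.31 ± 0.14 in SS (adjusted p = 0.000179) and by 1.55 ± 0.14 in BN lungs (adjusted p = 4.5e-05). Apln gave 0.22 ± 0.11 by its brightest probe set, and 0.47 ± 0.13 by another one, which passed (adjusted p = 0.023). The measured E protein genes Tcf4 (-0.01 ± 0.09) and Tcf12 (-0.22 ± 0.12), whose products ID proteins bind, did not pass. The falls of Smurf2 and Tmem100 lost their call in most fits that left out 1 array, and those of Hey1, Smad5 and Bambi and the rises of Bmp2 and Smad1 kept it in all of them on average over the strains.

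**Figure D4:**
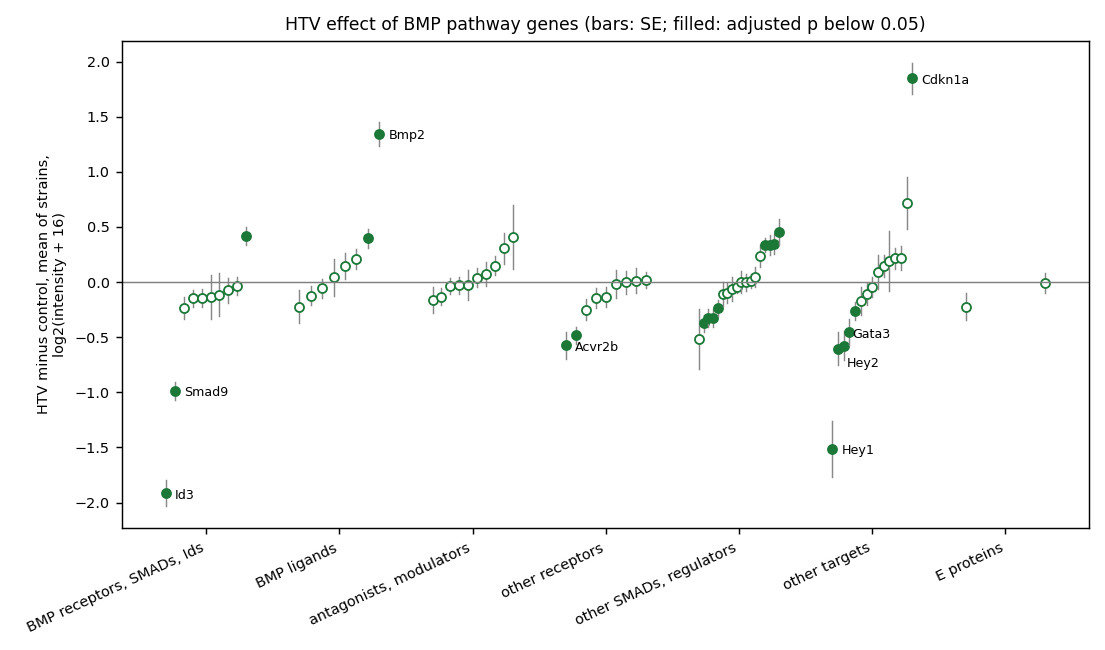
HTV minus control averaged over the strains (log2(intensity + 16) axis) for the 10 genes and the other pathway lists, 1 point per gene for its brightest tested probe set, bars for 1 SE and filled points for an adjusted p below 0.05. Id3, Smad9 and Hey1 lie at the negative end, and Bmp2 and Cdkn1a at the positive end.

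Likeness over the 12 arrays was taken for 4 of the genes against 10545 other genes, by Pearson's r of log2 values. The arrays share their 4 groups, so r is given as a description, with the r of deviations from group means beside it. Nearest to Id3 were Trim32 (r = 0.98, deviations 0.91), Nck1 (0.98, deviations 0.71) and Zfp329 (0.97, deviations 0.63). Nearest to Id1 were Ltc4s (0.91, deviations 0.84), Mbtd1 (0.86, deviations 0.84) and Ticam1 (0.83, deviations 0.72). For Smad6 1394025_at they were Cbfa2t3 (0.94, deviations 0.91), Epn1 (0.91, deviations 0.96) and Rxra (0.89, deviations 0.88), and for Bmpr2 Prkaa2 (0.95, deviations 0.88), Evi5 (0.95, deviations 0.84) and Zfp36l1 (0.94, deviations 0.83). The largest deviation of Smad6 1394025_at, -0.82, was on the third SS control array, and likeness without that array was not tested. Id3 and Smad9 themselves had r = 0.93 over the arrays and 0.30 over deviations from group means.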

How the data were processed

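RNA of 12 right lungs was measured on Affymetrix rat arrays. The authors deposited linear intensity values per probe set. The submitters' processing notes list MAS5 as the tool, and its version is not given in the sources used here. On every array the values between the 2nd and 98th percentiles averaged close to 150, and no further normalization was applied. Detection calls were not used here. The number of arrays limits the precision. Per the labels, each array has its own animal number, and a p-value here covers the spread between such samples only.

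By the platform annotation, 20826 probe sets carry 1 gene name, 436 several and 9780 none, and 57 are controls, which were left out. The rat RefSeq table (GRCr8) updated 0 symbols. Of the log2(intensity + 16) values, those of probe sets whose mean intensity reached the 40th percentile (43.6) entered the model. It holds the 4 group means over all 12 arrays (limma 3.58.1, R 4.3.3; lmFit and eBayes with trend; 8 residual degrees of freedom). Benjamini-Hochberg adjustment covered every tested probe set, separately in 6 comparisons. The model was tested on simulated data.

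All probe sets of the 10 genes are named. From the other lists the rule names up to 6 genes with the smallest p among those called, plus chosen ligands, receptors and SMADs, each by its brightest tested probe set, and the 3 genes most like Id1, Id3, Smad6 and Bmpr2. The genes and lists were chosen with earlier results of these data known. As alternatives, the pseudocount was set to 1 or 64, the filter was dropped or moved to the 60th percentile, and arrays were quantile-normalized or centred on their medians. Others were eBayes without trend, array weights, a fit of the compared arrays alone, a covariate for the beta-actin ratio, and leaving out each array.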

Additional observations from a re-analysis of the deposited data

Results flagged for a closer look

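For Smad7 1368896_at every SS HTV array lay above the SS control mean and every BN HTV array below the BN control mean. The SS effect minus the BN effect was 0.38 ± 0.16, and this difference did not pass the test (adjusted p = 0.587, unadjusted p = 0.0392). In SS lungs this pattern rests on the third SS control array, the lowest of its group. Without it the second SS HTV array lay below the SS control mean, the SS effect was 0.02 instead of 0.16, and the difference of the effects was 0.24. The other 2 probe sets of Smad7 gave differences of 0.14 ± 0.40 and 0.17 ± 0.26.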

How the results depend on the processing

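No paired analysis was possible because the groups share no replicate numbers in the labels. The number of called probe sets among the 17 stayed within 1.5 times of its main value in all comparisons and settings but those given here. In BN lungs 3 were called for HTV, against 5 after quantile normalization (1 higher, 4 lower), 5 with array weights (2 higher, 3 lower) and 2 to 6 without 1 array, with 6 (2 higher, 4 lower) without the third SS control array. In control lungs 2 differed between strains, against 5 with array weights and 2 to 4 without 1 array. In HTV lungs 4 did, against 2 with the beta-actin covariate and 2 to 4 without 1 array. Without 1 array the counts were 2 to 3 for HTV in SS lungs, 4 for the average and 0 for the difference of effects. No called value changed sign under any setting run. For HTV the weaker calls were those of Id4 in single strains, and between strains those of Id2 1368870_at, Id3 and Bmpr2 in HTV lungs. The cause of these changes was not tested. The number of arrays, 3 a group, limits the precision, and the distance of single values from background is unknown.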
